A study of Mus musculus with 30 samples.

Results

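Mitochondrial complex I is assembled from subunits and put together by assembly factors. Most of the nuclear genes for the subunits carry the NDUF name, as do some of those for the assembly factors. The 46 NDUF genes were taken from the 21073 genes measured in the EDL muscle by the start of their gene symbol, without use of any measured value. They comprised 38 structural genes (NDUFA, NDUFB, NDUFC, NDUFS and NDUFV, with NDUFAB1 among the NDUFA names) and 8 assembly factors (NDUFAF1 to NDUFAF8). Of the structural genes, NDUFA4 is now regarded as a subunit of cytochrome c oxidase, and NDUFA4L2 is its paralog. Without both, 36 structural genes remained, and NDUFB1 had no row. Human-style capitals are used for the mouse NDUF genes.

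The extensor digitorum longus (EDL), a fast hindlimb muscle, came from 30 wild-type female SJL mice, with 5 mice in each of 6 groups. EAE-induced mice had received the PLP139-151 peptide of myelin in complete Freund's adjuvant (CFA), without pertussis toxin, which gives a mild form of experimental autoimmune encephalomyelitis. OVA-immunized mice had received ovalbumin in CFA, and unimmunized mice (Ctrl) neither antigen nor adjuvant, so that EAE and OVA mice shared the adjuvant. Muscles were taken on day 14, near the peak of disease, or on day 40, in remission, from different mice, and the study asked how gene expression of the EDL muscle differed between the groups. Each value came from 1 mouse. The p-values rest on the spread between mice within groups, pooled over the groups fitted together and in part shared across genes. Ages were not given in the sources used here.

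Complex I, NADH:ubiquinone oxidoreductase, is the entry point for electrons from NADH into the respiratory chain of the inner mitochondrial membrane. Its L-shaped body has a matrix arm, where the N module oxidizes NADH and the Q module reduces ubiquinone, and a membrane arm, which pumps protons. Core subunits carry out the reaction, the hydrophobic ones among them being encoded in mitochondrial DNA, and accessory subunits surround them. Assembly factors join the modules and are not found in the finished enzyme. Muscle depends on the enzyme for oxidative ATP production.

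The promoters of 4 of the genes are shown because their mRNAs differed in their response on day 14 and because 1 of them holds a sequence for nuclear respiratory factor 1 (NRF1), a known activator of respiratory chain genes. Each run is the 250 bases before the transcription start that the RefSeq promoter table gives (GRCm38.p6), written 5′ to 3′ on the strand of the gene, with capitals marking GCGC followed after any 2 bases by GCGC, a spaced pattern of NRF1 that reads alike on both strands.
NDUFAF4, chr4:24897833-24898082, plus strand: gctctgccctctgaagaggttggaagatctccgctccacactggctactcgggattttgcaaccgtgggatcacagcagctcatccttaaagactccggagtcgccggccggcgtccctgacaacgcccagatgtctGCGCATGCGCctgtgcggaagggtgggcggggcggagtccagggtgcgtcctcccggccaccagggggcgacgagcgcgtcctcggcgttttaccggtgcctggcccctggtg
NDUFAF5, chr2:140170396-140170645, plus strand: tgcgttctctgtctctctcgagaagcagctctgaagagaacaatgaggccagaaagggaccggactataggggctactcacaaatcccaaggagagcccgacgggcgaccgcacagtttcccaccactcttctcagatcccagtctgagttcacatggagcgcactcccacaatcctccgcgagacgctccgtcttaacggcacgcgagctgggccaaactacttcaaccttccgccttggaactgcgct
NDUFB10, chr17:24724424-24724673, minus strand: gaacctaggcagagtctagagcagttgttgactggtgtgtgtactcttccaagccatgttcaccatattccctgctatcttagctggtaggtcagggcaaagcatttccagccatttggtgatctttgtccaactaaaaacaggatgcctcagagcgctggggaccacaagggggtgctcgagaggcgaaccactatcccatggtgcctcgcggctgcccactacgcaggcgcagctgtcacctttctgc
NDUFS7, chr10:80249199-80249448, plus strand: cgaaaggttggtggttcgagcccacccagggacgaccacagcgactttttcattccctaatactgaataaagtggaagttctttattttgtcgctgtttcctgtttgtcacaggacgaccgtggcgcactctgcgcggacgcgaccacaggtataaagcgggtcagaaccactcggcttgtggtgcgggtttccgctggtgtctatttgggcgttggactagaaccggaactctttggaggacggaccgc
The run of NDUFS7 lies wholly within its annotated gene, and the end of the NDUFAF5 run reaches into its own. For both, the table thus used a start downstream of the first annotated one, and the bases before that first start were not all searched. NDUFAF4 and NDUFAF5 are early assembly factors, NDUFB10 is a membrane arm subunit, and NDUFS7 is a core subunit of the Q module. NDUFAF5, NDUFB10 and NDUFS7 were called lower in EAE-induced mice on day 14, and NDUFAF4, with the capitals, was not. Of 35 structural promoters in the RefSeq table, 9 (25.7%) held the spaced pattern, against 4.98% of all 32851 promoters of this length, and so did 1 of 7 assembly factor promoters. The 8 structural genes with it, NDUFA5 in both of its promoter entries, were NDUFA5, NDUFA8, NDUFA11, NDUFAB1, NDUFB4, NDUFS5, NDUFS6 and NDUFV2. All 8 were called lower in EAE than in Ctrl mice on day 14, compared with 15 of the 25 structural genes without it and 11.8% of all genes tested, but NDUFB4, NDUFV2 and NDUFS5 lost their call when single mice were left out. With the stricter letters CGCATGCG, which can lie within the spaced pattern, 2 structural promoters (NDUFA8 and NDUFA11) and that of NDUFAF4 matched, against 1.55% of all promoters. These counts are a description without a test. The letters searched on both strands for the ETS-type factor GABPA (CCGGAAGT), for estrogen-related receptor alpha (TCAAGGTCA) and for YY1 (AAGATGGCG) were in 0 of the NDUF promoters and in 2.88%, 0.387% and 0.606% of all promoters. NDUFS1, NDUFA4L2, NDUFB9, NDUFA2 and NDUFAF6 were among the genes without a promoter in the table.

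Values are RPKM, reads per kilobase of exon scaled to the mapped reads of the library, so that levels can be compared between genes. The depth estimated from the values was 17.7M to 30.9M reads per mouse with a median of 21.1M. The mice differed in how the level of a gene depended on its exon length. This was expressed as the slope of a gene's log2 deviation from the mean of the day's mice on its log2 exon length, over 8385 genes, in which a slope below 0 means that long transcripts had lower values in that mouse than short ones. The slope was lowest in Ctrl mouse 1 (-0.31), OVA mouse 1 (-0.26), OVA mouse 5 (-0.19) and, among EAE mice, EAE mouse 1 (-0.11) on day 14, and it was 0.09 to 0.23 in the other EAE mice. Structural NDUF genes had a median exon length of 977 bases, against 3085 for all these genes, and the same 4 mice had the highest structural values of their groups. Results of day 14 are therefore also given without these 4 mice and after removal of the length trend.

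**Figure D1:**
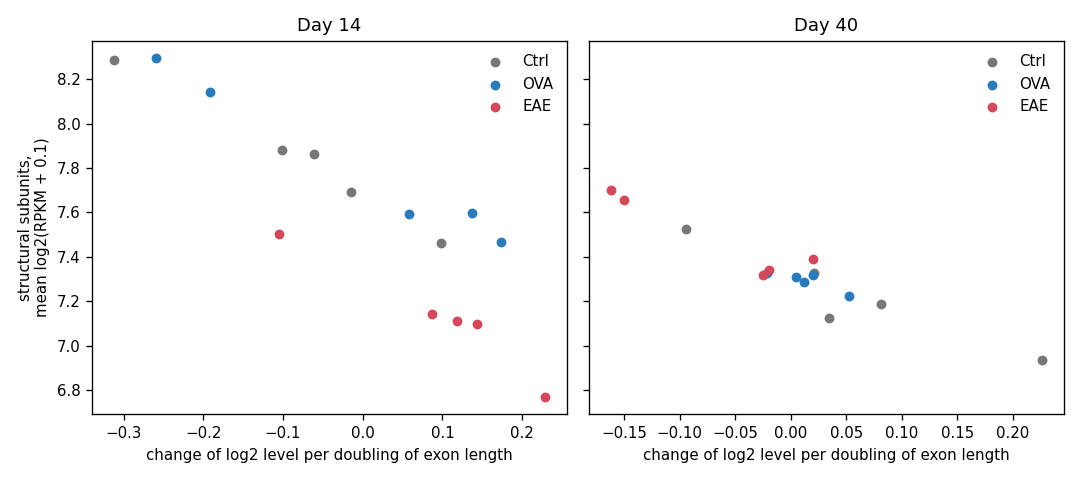
Mean level of the 38 structural genes (vertical axis, mean log2(RPKM + 0.1)) against the length slope of each mouse (horizontal axis, change of the log2 level per doubling of exon length), with 1 point per mouse and 15 mice per day. On day 14 the 2 mice with slopes of -0.31 and -0.26 lie highest, at 8.29 and 8.30, and the EAE mouse with a slope of 0.23 lies lowest, at 6.77.

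Structural genes were expressed at a higher level than assembly factors. In Ctrl mice on day 14, the mean RPKM of the structural genes had a median of 305 and ranged from 24.9 (NDUFA4L2) to 1108 (NDUFA4). The assembly factors had a median of 19.5 and ranged from 10.0 (NDUFAF7) to 32.8 (NDUFAF8), so that NDUFA4L2 and NDUFB4 (26.6) were the structural genes within their range. NDUFB4 has near-identical copies in the mouse genome, and its level is uncertain where reads were shared with them. The other structural genes under 60 RPKM were NDUFA8 (38.8), NDUFAB1 (43.1) and NDUFA12 (50.6). RPKM rests on the exon model of each gene, for which the authors used RefSeq transcripts. By the GENCODE exon lengths used here, NDUFAB1 was the longest of the structural genes, with 4387 bases. NDUFB2, at a mean of 314 RPKM, was close, with 4375 bases. NDUFA4, the most abundant member, stayed first among the NDUF genes in all 6 groups.

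On day 14, all 38 structural genes had lower values in EAE-induced than in Ctrl mice, and 26 were called lower, against 11.8% of the 8771 genes tested in this comparison. A gene was called at a Benjamini-Hochberg adjusted p below 0.05 over all genes tested and a fold change above 1.5 (limma). Without the fold-change threshold, 32 structural genes passed, against 19% of all genes lower by this rule. The median log2 fold change was -0.77, with a range of -1.09 to -0.14, against 0.11 over all genes tested. In 17 of the 38 all EAE mice lay below all Ctrl mice, as in 11% of all genes. A lower share of muscle fibres in the tissue and less of these mRNAs per fibre cannot be told apart in whole muscle.

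**Figure D2:**
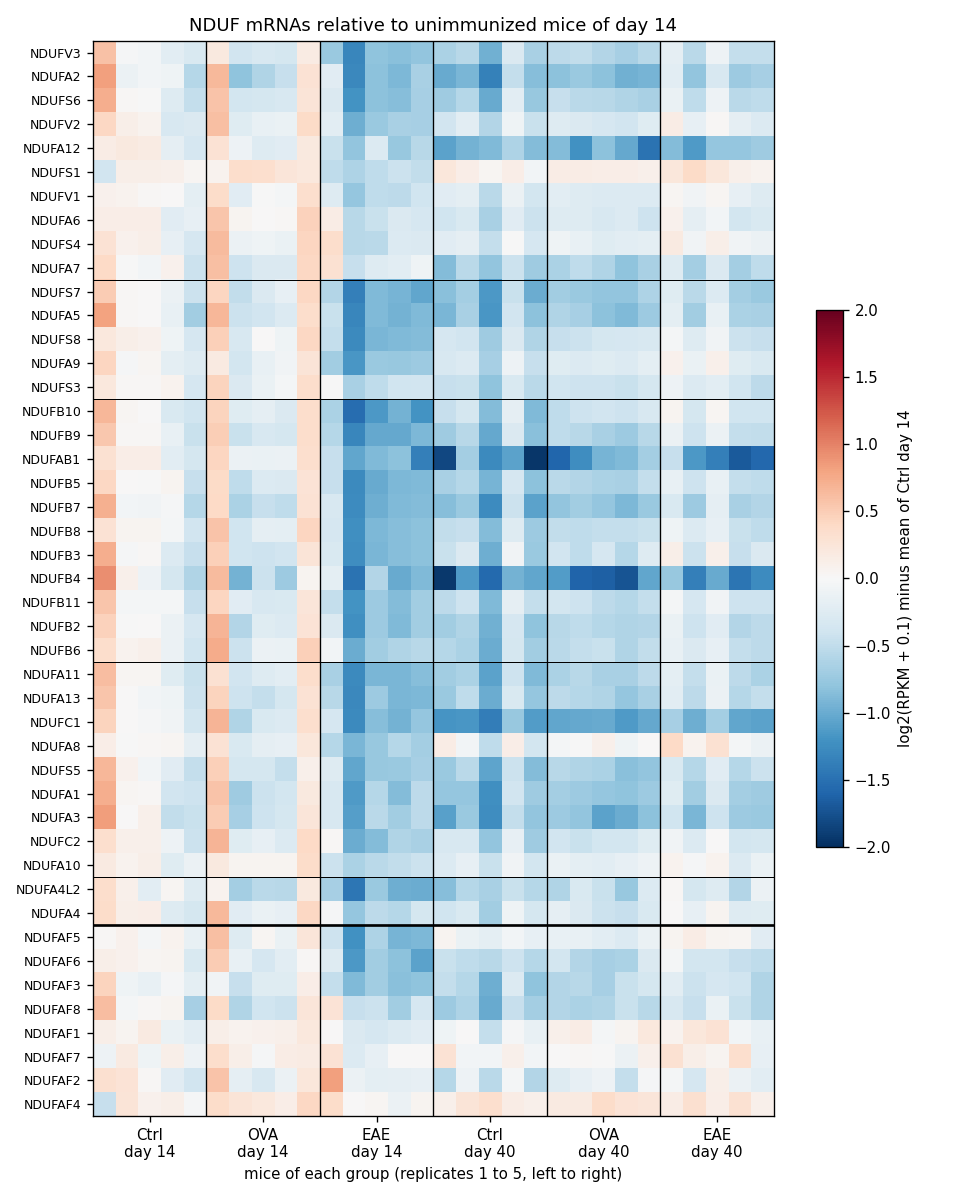
Level of 45 NDUF genes (rows) in the 30 mice (columns, grouped by treatment and day) as log2(RPKM + 0.1) minus the mean of the Ctrl mice of day 14, in a colour scale from -2 to 2. Thin lines separate, from the top, the N module, Q module, distal membrane arm, proximal membrane arm and the pair NDUFA4L2 and NDUFA4, and the thick line separates the assembly factors. Within a block the genes are in order of their log2 fold change between EAE and Ctrl mice on day 14, from -1.09 (NDUFB10) to 0.07 (NDUFAF4).

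The membrane arm had the larger share of called genes against Ctrl, and the difference between the arms was not tested. In its distal part, 10 of 11 genes were called lower (median log2 fold change -0.83), and in its proximal part 7 of 9 (median -0.69). NDUFB10 (Entrez 68342, chr17:24722060-24724423), a distal accessory subunit, was measured at 1179.8, 763, 749, 601 and 568 RPKM in the 5 Ctrl mice. It was at 1015, 627, 656, 609 and 952 RPKM in the OVA mice and at 481, 258, 337, 385 and 325 RPKM in the EAE mice. The highest EAE mouse lay below the lowest Ctrl and OVA mice. The log2 fold change was -1.09 ± 0.22 (SE), adjusted p = 0.000842 by limma, the lowest among the structural genes and the only one beyond a fold change of 2. NDUFB9 (chr15:58933801-58939516), also of the distal part, had 1377, 959, 961, 854 and 693 RPKM in Ctrl mice and 638, 383, 462, 463 and 505 RPKM in EAE mice, again without overlap. Its log2 fold change was -0.97 ± 0.21 (SE), adjusted p = 0.00177. NDUFAB1, which also serves mitochondrial fatty acid synthesis, had 52.3, 46.6, 46.4, 36.6 and 33.4 RPKM in Ctrl mice and 30.7, 20.6, 23.0, 23.9 and 16.4 RPKM in EAE mice. All EAE mice were below all Ctrl mice, with a log2 fold change of -0.92 ± 0.17 (SE), adjusted p = 0.000596. In the proximal part, NDUFA11, an accessory subunit at the base of the membrane arm, had the largest change, with 91.1, 60.9, 61.1, 50.5 and 43.6 RPKM in Ctrl mice and 37.8, 24.5, 31.4, 31.6 and 32.9 RPKM in EAE mice, without overlap. Its log2 fold change was -0.92 ± 0.19 (SE), adjusted p = 0.00122. NDUFA3 (log2 fold change -0.63 ± 0.26 (SE), adjusted p = 0.0537), NDUFA10 (-0.50 ± 0.10 (SE), adjusted p = 0.00122) and NDUFB6 (-0.58 ± 0.22 (SE), adjusted p = 0.0387) were the membrane arm genes that were not called. NDUFA10 missed the fold-change threshold although all EAE mice lay below all Ctrl mice.

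In the matrix arm, 8 of 16 genes were called lower, with 4 of 6 in the Q module (median log2 fold change -0.85) and 4 of 10 in the N module (median -0.54). NDUFS7 (Entrez 75406, chr10:80249105-80256794), which carries an iron-sulfur cluster next to the ubiquinone site, was at 748, 535, 531, 486 and 393 RPKM in Ctrl mice. It was at 713, 373, 433, 469 and 699.6 RPKM in OVA mice and at 353, 204, 285, 277 and 256 RPKM in EAE mice. The EAE mice lay below the mice of both other groups, with a log2 fold change of -0.96 ± 0.21 (SE), adjusted p = 0.0015 against Ctrl. NDUFS8, its iron-sulfur partner in the Q module, had 218, 204, 199, 177 and 149 RPKM in Ctrl mice and 134, 77.6, 99.6, 102 and 103 RPKM in EAE mice, again without overlap (log2 fold change -0.88 ± 0.17 (SE), adjusted p = 0.000721). NDUFS3, another core gene of the Q module, had 227, 199, 199, 206 and 154 RPKM in Ctrl mice and 195, 124, 137, 149 and 150.0 RPKM in EAE mice. Its groups overlapped and it was not called (-0.39 ± 0.16 (SE), adjusted p = 0.0526). Among the core genes of the N module, NDUFV2, which carries an iron-sulfur cluster beside the flavin, had 479, 391, 376, 288 and 294 RPKM in Ctrl mice and 309, 183, 215, 229.9 and 227 RPKM in EAE mice, which overlapped through EAE mouse 1. It was called (-0.65 ± 0.19 (SE), adjusted p = 0.0113), but not when Ctrl mouse 1 or EAE mouse 2 was left out. NDUFV1, which binds the flavin and NADH, was at 371, 367, 355, 352 and 306 RPKM in Ctrl mice and at 291, 204, 245, 242 and 264 RPKM in EAE mice. Its groups did not overlap, but the log2 fold change of -0.50 ± 0.13 (SE; adjusted p = 0.0056) was under the threshold. NDUFS1, the largest core subunit of the N module, had 148, 208, 208, 206 and 196 RPKM in Ctrl mice. The EAE mice had 135, 125, 135, 142 and 136 RPKM, all below the lowest Ctrl mouse, and the log2 fold change was -0.51 ± 0.11 (SE), adjusted p = 0.00119. Ctrl mouse 1 was the lowest Ctrl mouse in NDUFS1 and the highest in NDUFS7 and NDUFB10. NDUFS1 has an exon length of 2819 bases, against 983 for NDUFS7 and 732 for NDUFB10. Of the 7 nuclear core genes, 3 were called and 6 had an adjusted p below 0.05.

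The smallest differences were in accessory genes of the N module. NDUFA7 was at 298, 226, 219, 241 and 169 RPKM in Ctrl mice and at 280.0, 165, 189, 195 and 213 RPKM in EAE mice, which overlapped (log2 fold change -0.14 ± 0.21 (SE), adjusted p = 0.584). After removal of the length trend, this value changed sign, to 0.15. NDUFS4, whose loss causes a mitochondrial encephalopathy, was at 161, 141, 144, 118 and 105 RPKM in Ctrl mice and at 168, 89.6, 90.6, 109 and 108 RPKM in EAE mice. EAE mouse 1 was above all Ctrl mice and the other 4 EAE mice lay between 89.6 and 109 RPKM, and the log2 fold change was -0.27 ± 0.19 (SE), adjusted p = 0.262. NDUFA6 was at 136, 135, 135, 106 and 109.8 RPKM in Ctrl mice and at 136, 84.3, 90.3, 100.5 and 98.1 RPKM in EAE mice, with a log2 fold change of -0.30 ± 0.15 (SE), adjusted p = 0.107. In all 3 genes EAE mouse 1 was the highest of its group. By contrast, NDUFV3 and NDUFS6, accessory genes of the same module, were called lower, at -0.90 ± 0.17 and -0.77 ± 0.23 (log2 fold change and SE; adjusted p = 0.000752 and 0.014).

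NDUFA4 and NDUFA4L2 differed in their level and in their calls. NDUFA4 was at 1404, 1183, 1191, 911 and 854 RPKM in Ctrl mice and at 1067, 639, 756, 730.4 and 858 RPKM in EAE mice (log2 fold change -0.45 ± 0.20 (SE), adjusted p = 0.0695), and was not called. NDUFA4L2, known as a gene induced in hypoxia, was at 31.2, 26.3, 21.2, 25.2 and 20.5 RPKM in Ctrl mice and at 15.6, 9.00, 14.7, 12.5 and 12.4 RPKM in EAE mice. The groups of NDUFA4L2 did not overlap, and it was called lower (-0.96 ± 0.19 (SE), adjusted p = 0.000795). The difference between both fold changes was not tested.

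**Figure D3:**
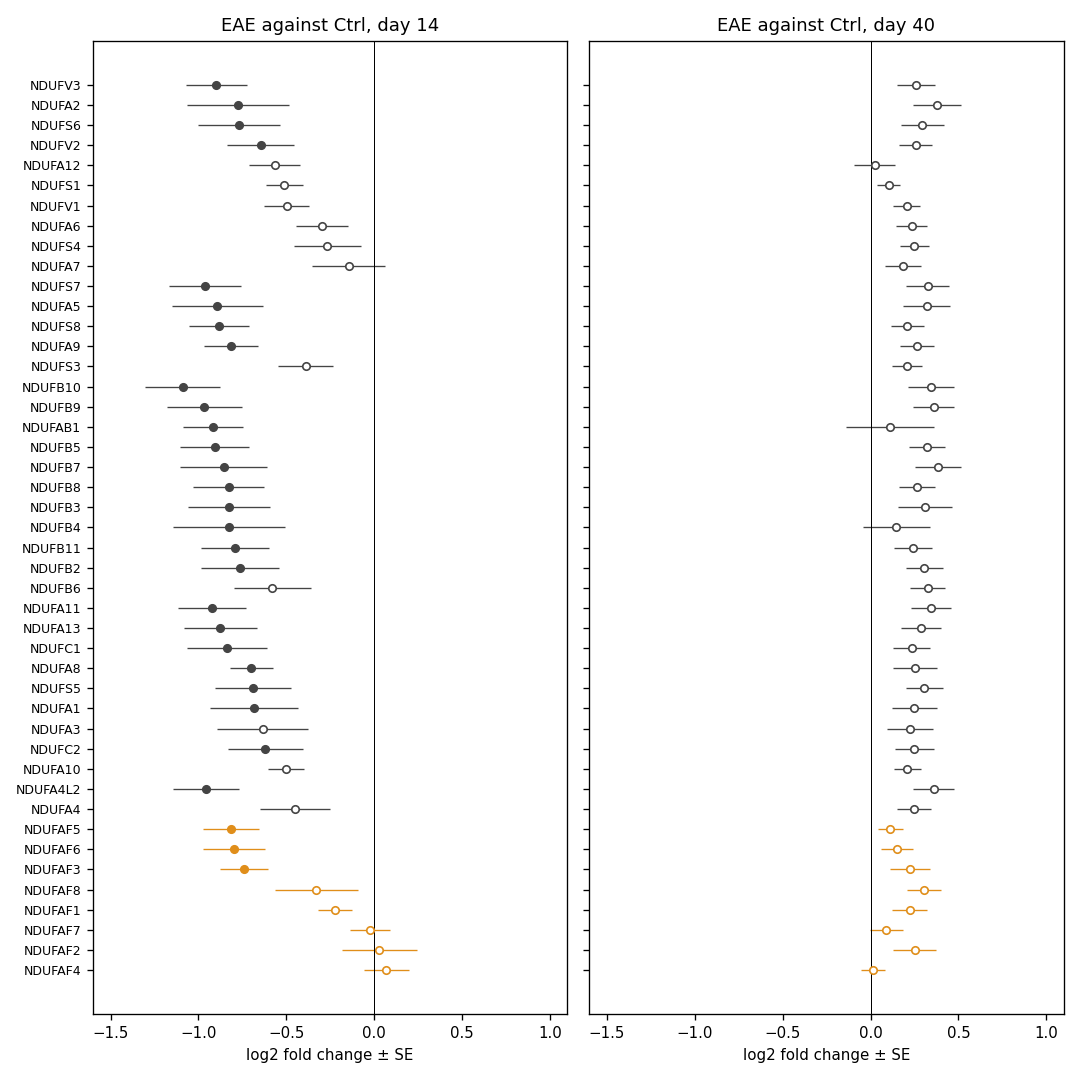
Log2 fold change between EAE and Ctrl mice (horizontal axis, with SE from limma) of 45 NDUF genes on day 14 (left) and day 40 (right), in the row order of the colour plot of levels, with structural genes in grey and assembly factors in orange. Filled points were called, which holds for 26 structural genes and 3 assembly factors on day 14 and for none on day 40, when all 45 points lie above 0.

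The counts of called structural genes depended on the 4 mice named above and on the length trend. With the trend removed, 20 of the 38 were called lower than in Ctrl mice, with a median log2 fold change of -0.59. Without the 4 mice 28 were called (median -0.72), and with both changes 16 (median -0.55). Leaving out 1 mouse at a time gave 21 to 30 called genes, and NDUFA2, NDUFB4, NDUFC2 and NDUFA1 lost their call in 8, 6, 6 and 5 of 10 such fits, and NDUFS5 without Ctrl mouse 1.

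Compared with OVA-immunized mice on day 14, which controls for the adjuvant, 26 of 38 structural genes were again called lower in EAE mice, against 9.28% of the 8674 genes tested. This comparison used the same 5 EAE mice. All 38 had lower values, with a median log2 fold change of -0.71, against 0.11 over all genes, and 32 had an adjusted p below 0.05, against 15.3% of all genes lower by this rule. By arm, 16 of 20 membrane arm and 9 of 16 matrix arm genes were called lower, and 17 and 13 had an adjusted p below 0.05. The medians of the arms were -0.73 and -0.66. Among the parts of the arms, the Q module had the lowest median (-0.83), as it had against Ctrl (-0.85). Calls with the length trend removed were not counted by arm. Of the 38, 22 were called in both comparisons, 4 (NDUFA1, NDUFA2, NDUFB4 and NDUFS5) against Ctrl and not against OVA, and 4 (NDUFA10, NDUFB6, NDUFS1 and NDUFV1) against OVA and not against Ctrl. NDUFA3, NDUFA4, NDUFA6, NDUFA7, NDUFA12, NDUFS3 and NDUFS4 were among those called in neither. NDUFS1 had the lowest adjusted p of the structural genes, with 201, 244, 241, 227 and 222 RPKM in OVA mice and a log2 fold change of -0.75 ± 0.11 (SE), adjusted p = 6.22e-05. NDUFB10 (-1.11 ± 0.22 (SE), adjusted p = 0.000926), NDUFAB1 (-0.99 ± 0.17 (SE), adjusted p = 0.000384) and NDUFS8 (-0.98 ± 0.17 (SE), adjusted p = 0.000363) had the lowest log2 fold changes. The count depended on the mice with the lowest length slopes. Without OVA mice 1 and 5, Ctrl mouse 1 and EAE mouse 1, 12 structural genes were called and the median log2 fold change was -0.54. With the length trend removed 20 were called (median -0.61), and 18 with both changes (median -0.58). NDUFB7 and NDUFV1 lost their call in 6 and 5 of 10 fits with 1 mouse left out, and NDUFB2, NDUFB3, NDUFB6, NDUFC2, NDUFS6 and NDUFA4L2 in 2 or 3, among them those without OVA mouse 1 or EAE mouse 2.

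OVA-immunized and Ctrl mice did not differ in a called NDUF gene on day 14, where 0.142% of the 8471 genes tested were called. By limma, 0 of the 38 structural genes and 0 of the 8 assembly factors had an adjusted p below 0.05. At an unadjusted p below 0.05 there were 1 structural gene, NDUFS1 (log2 fold change 0.24 ± 0.11 (SE), adjusted p = 0.47), and 1 assembly factor, NDUFAF4 (0.28 ± 0.13 (SE), adjusted p = 0.503), both with higher values in OVA mice, against 3.9% of all genes in this direction. The median log2 fold change was -0.03 for structural genes and 0.07 for assembly factors. The standard errors of the structural genes were 0.10 to 0.32 on the log2 scale.

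The assembly factors were less uniform. On day 14, 3 of 8 were called lower in EAE than in Ctrl mice, against 11.8% of all genes tested. The 3 were among 5 factors listed here as acting early on the matrix arm, of which NDUFAF4 and NDUFAF7 were not called. NDUFAF8, a partner of NDUFAF5, was listed here with the membrane arm intermediate and was not called either. NDUFAF5, which hydroxylates an arginine of NDUFS7 during assembly, was at 16.3, 17.1, 15.6, 17.0 and 14.5 RPKM in Ctrl mice. It was at 24.5, 13.5, 16.5, 14.6 and 19.0 RPKM in OVA mice and at 12.0, 6.90, 10.4, 8.44 and 8.59 RPKM in EAE mice. The EAE mice lay below all others, with a log2 fold change of -0.81 ± 0.16 (SE), adjusted p = 0.000802 against Ctrl and -0.91 ± 0.16 (SE), adjusted p = 0.000409 against OVA. NDUFAF6, a factor of early assembly, was at 23.8, 23.3, 22.4, 22.7 and 17.7 RPKM in Ctrl mice and at 18.4, 9.80, 13.5, 12.3 and 10.4 RPKM in EAE mice. EAE mouse 1 lay within the range of the Ctrl mice, and the log2 fold change was -0.80 ± 0.18 (SE), adjusted p = 0.0018. NDUFAF3, which forms an early complex with NDUFAF4, was at 28.4, 19.6, 18.9, 20.5 and 18.2 RPKM in Ctrl mice and at 15.0, 11.3, 12.8, 11.6 and 11.9 RPKM in EAE mice, without overlap. Its log2 fold change was -0.74 ± 0.13 (SE), adjusted p = 0.000458 against Ctrl, and -0.56 ± 0.13 (SE), adjusted p = 0.00391 against OVA, where it missed the fold-change threshold.

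NDUFAF4, the partner of NDUFAF3, was not called. It was at 9.43, 15.5, 13.8, 14.1 and 12.8 RPKM in Ctrl mice and at 16.8, 13.1, 13.3, 11.9 and 13.4 RPKM in EAE mice, with a log2 fold change of 0.07 ± 0.13 (SE), adjusted p = 0.673. Ctrl mouse 1, with the lowest length slope, was the lowest in NDUFAF4, whose exons span 3632 bases, and without it the log2 fold change was -0.045. NDUFAF2, which acts late when the N module is attached, was at 22.0, 21.3, 17.9, 15.0 and 13.5 RPKM in Ctrl mice and at 31.2, 16.2, 15.4, 15.5 and 15.6 RPKM in EAE mice. EAE mouse 1 stood apart, while the other 4 EAE mice were within 15.4 to 16.2 RPKM, and the log2 fold change was 0.03 ± 0.21 (SE), adjusted p = 0.92, or -0.17 without that mouse. NDUFAF7, an arginine methyltransferase of complex I assembly, was at 9.35, 11.3, 9.38, 10.8 and 9.29 RPKM in Ctrl and 12.3, 8.28, 8.94, 10.0 and 10.1 RPKM in EAE mice (-0.02 ± 0.11 (SE), adjusted p = 0.876). NDUFAF1, a factor of the membrane arm intermediate, was at 23.0, 21.9, 24.1, 19.2 and 18.3 RPKM in Ctrl and 21.3, 17.3, 16.8, 17.5 and 18.1 RPKM in EAE mice (-0.22 ± 0.10 (SE), adjusted p = 0.0647). The groups of both genes overlapped. NDUFAF8, a partner of NDUFAF5, was at 48.5, 30.7, 32.1, 32.7 and 20.0 RPKM in Ctrl and 38.1, 22.9, 23.4, 19.5 and 25.1 RPKM in EAE mice, which also overlapped (-0.33 ± 0.24 (SE), adjusted p = 0.263). The 8 assembly factors had a median log2 fold change of -0.28 against Ctrl, which was -0.12 with the length trend removed, -0.29 without the 4 mice, -0.17 with both changes and -0.18 without Ctrl mouse 1. Against OVA it was -0.27 (-0.33, -0.29 and -0.35 with these 3 alternatives), NDUFAF5 and NDUFAF6 were called, and NDUFAF1 and NDUFAF3 had an adjusted p below 0.05 at a smaller fold change. The signs of NDUFAF2 and NDUFAF4 against Ctrl turned with the scaling, to -0.064 and -0.024 after median-of-ratios scaling.

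**Figure D4:**
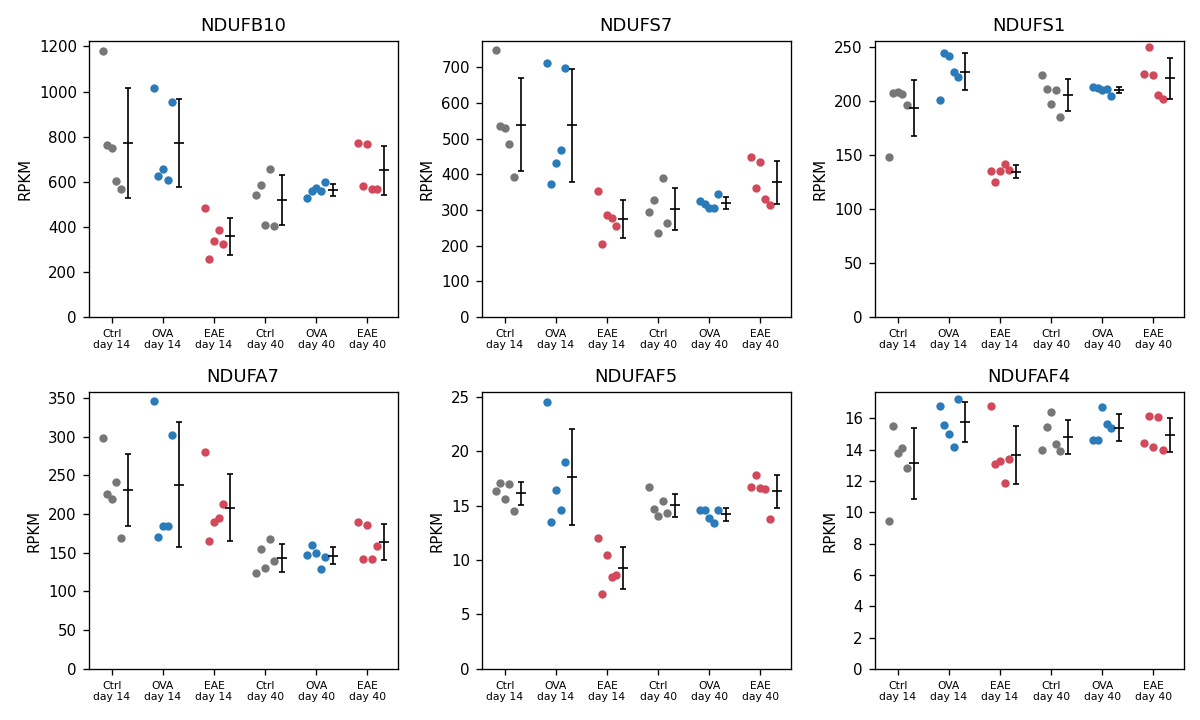
RPKM in each mouse (points) with the mean and SD of each group of 5 mice (bars beside the points) for NDUFB10, NDUFS7, NDUFS1, NDUFA7, NDUFAF5 and NDUFAF4, with axes from 0. On day 14 the EAE mice lie below all Ctrl mice in NDUFB10, NDUFS7, NDUFS1 and NDUFAF5, and overlap with them in NDUFA7 and NDUFAF4.

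Averaged per mouse on the log2(RPKM + 0.1) scale, the structural genes were at 7.84 ± 0.30 in Ctrl, 7.82 ± 0.37 in OVA and 7.12 ± 0.26 in EAE mice on day 14 (SD, n = 5 each). The assembly factors were at 4.18 ± 0.15, 4.22 ± 0.23 and 3.83 ± 0.25. The distance between both classes within a mouse was 3.66 ± 0.19 in Ctrl, 3.60 ± 0.15 in OVA and 3.30 ± 0.11 in EAE mice. It ranged from 3.13 to 3.40 in EAE mice, below the 3.51 to 3.97 of Ctrl mice and the 3.43 to 3.76 of OVA mice, without overlap. This distance is a description without a test. It was largest in Ctrl mouse 1 (3.97) and OVA mice 1 and 5 (3.76 and 3.75), the mice with the lowest length slopes. Without these, the Ctrl and OVA mice ranged from 3.43 to 3.67, still above the highest EAE mouse. On day 40 the distances overlapped, with 3.19 to 3.47 in Ctrl, 3.25 to 3.35 in OVA and 3.24 to 3.52 in EAE mice.

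**Figure D5:**
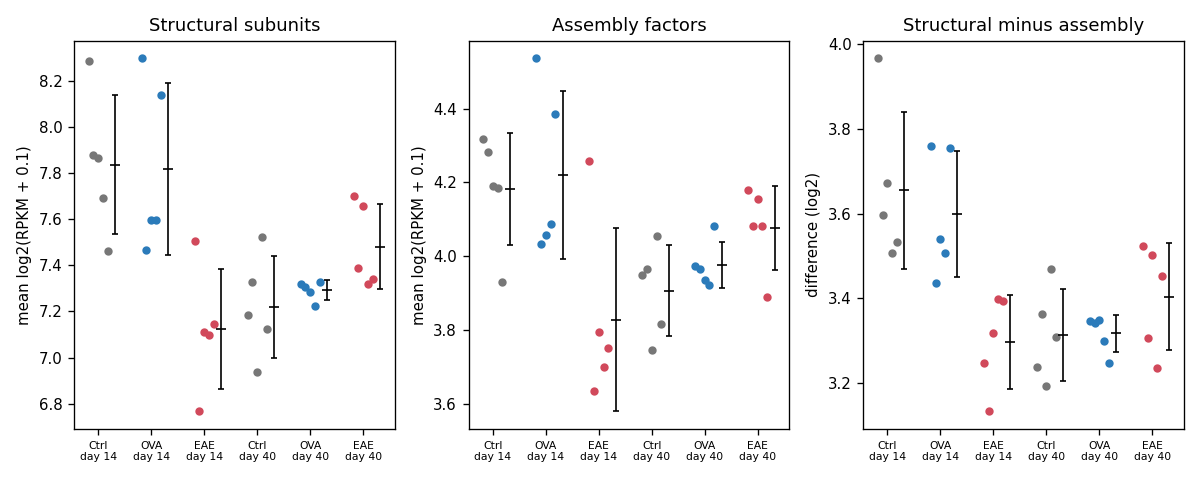
Mean log2(RPKM + 0.1) per mouse of the 38 structural genes (left) and the 8 assembly factors (middle), and the difference between both (right), with 1 point per mouse and the mean and SD of each group of 5. The right panel shows the EAE mice of day 14 between 3.13 and 3.40, below the Ctrl and OVA mice of that day.

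Across the 38 structural genes, the log2 fold change against Ctrl on day 14 had a Spearman correlation of -0.14 with the level in Ctrl mice and of -0.08 with exon length, and across all 46 NDUF genes of -0.34 and 0.01. These are descriptions across genes of the same libraries. The 5 structural genes under 60 RPKM had a median log2 fold change of -0.83 and 4 of them were called.

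On day 40 no NDUF gene was called between EAE and Ctrl mice, where 0.46% of the 8691 genes tested were. This background of 40 genes ranged from 1 (without EAE mouse 3) to 202 (without Ctrl mouse 4) with 1 mouse left out, and was 0 with all 30 mice in 1 model. All 38 structural genes and all 8 assembly factors had higher values in EAE mice, with medians of 0.26 and 0.19 on the log2 scale, against -0.05 over all genes. At an unadjusted p below 0.05 there were 29 structural genes and 2 assembly factors, all higher, against 7.62% of all genes in this direction. The lowest adjusted p was 0.074, for NDUFB6, and 0 had an adjusted p below 0.05 by limma. NDUFB10 was at 539.8, 584, 406, 655 and 403 RPKM in Ctrl mice and at 771, 583, 766, 567 and 566 RPKM in EAE mice of day 40 (0.34 ± 0.13 (SE), adjusted p = 0.117). NDUFS7 was at 296, 329, 237, 389 and 264 and 448, 361, 435, 330.5 and 314 RPKM (0.33 ± 0.12 (SE), adjusted p = 0.111). In both genes the groups overlapped, and EAE mice 1 and 3 were the highest. These 2 mice also had the lowest length slopes of day 40, at -0.16 and -0.15, and Ctrl mouse 3, the lowest Ctrl mouse in NDUFS7, had the highest, at 0.23. With the length trend removed, the median log2 difference of the structural genes was 0.15, and with quantile normalization 0.16. Against OVA mice 37 of 38 structural genes had higher values in EAE mice (median log2 fold change 0.21, or 0.11 with the length trend removed and 0.12 with quantile normalization), 10 at an unadjusted p below 0.05 against 3.72% of all genes in this direction, and 0 were called, as for 0.209% of all genes (18 genes, and 2 to 22 with 1 mouse left out). NDUFAB1 was the exception, at -0.18 ± 0.25 (SE). NDUFAF5 had the lowest adjusted p of all members in this comparison, 0.18, with 14.6, 14.6, 13.8, 13.4 and 14.6 RPKM in OVA and 16.7, 17.8, 16.6, 16.5 and 13.8 RPKM in EAE mice. OVA and Ctrl mice of day 40 did not differ in a called gene, and 0% of all genes were called. At an unadjusted p below 0.05 there were 0 structural genes and 1 assembly factor, NDUFAF1 (0.24 ± 0.10, SE), with a higher value in OVA mice, against 1.39% of all genes.

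The difference between EAE and Ctrl mice changed between the days. In a limma model of all 30 mice, 35 of 38 structural genes were called for a higher log2 fold change on day 40 than on day 14, against 11.7% of the 9013 genes tested, with a median change of 1.03, against -0.15 over all genes. NDUFB10 (1.43 ± 0.26 (SE), adjusted p = 0.000102), NDUFB9 (1.33 ± 0.25 (SE), adjusted p = 0.000143), NDUFA4L2 (1.32 ± 0.23 (SE), adjusted p = 5.70e-05), NDUFS7 (1.29 ± 0.25 (SE), adjusted p = 0.000177) and NDUFA11 (1.27 ± 0.23 (SE), adjusted p = 9.50e-05) had the largest changes. NDUFA6, NDUFA7 and NDUFS4 were not called. Of the assembly factors, NDUFAF3 (0.96 ± 0.18), NDUFAF5 (0.93 ± 0.18) and NDUFAF6 (0.95 ± 0.20, SE) were called, the same 3 as on day 14. Against OVA, 33 structural genes and the same 3 assembly factors were called, against 8.16% of all genes, with median changes of 0.89 and 0.33.

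The group means of both days entered this contrast. In EAE mice 32 of 38 structural genes had a higher mean on day 40 than on day 14, with a median difference of 0.41 on the log2 scale. In Ctrl mice 37 of 38 had a lower mean on day 40, with a median difference of -0.63, and in OVA mice also 37 of 38, with a median of -0.52. NDUFS1 was the exception in Ctrl and NDUFA8 in OVA mice. NDUFAB1 had the largest such difference in Ctrl mice, -1.36, with 12.0, 26.5, 17.6, 20.3 and 10.9 RPKM on day 40. The days were not compared by a test, and day and age of the mice cannot be told apart. With the length trend removed, 26 structural genes were called in each of both change contrasts, and 23 and 25 when the 4 mice of day 14 were also left out. A threshold of a fold change of 2 left 20 and 9. With 1 mouse left out, NDUFA12, NDUFB4 and NDUFS3 lost their call against Ctrl in 10, 9 and 7 of 20 fits, and NDUFA1, NDUFA2 and NDUFS4 against OVA in 12, 10 and 7. NDUFA3 (without Ctrl mouse 1 or EAE mouse 2 of day 14) and NDUFS1 (without Ctrl mouse 5 or EAE mouse 2 of day 40) also lost theirs against Ctrl, and NDUFA6 (without OVA mouse 1 of day 14) against OVA.

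The other complexes of the respiratory chain were counted in the same fit as background for the NDUF genes. On day 14, EAE mice had lower called values than Ctrl mice for 2 of 7 genes of complex II, 5 of 8 of complex III, 11 of 15 of complex IV and 11 of 16 of complex V. Of all genes tested, 11.8% were called lower. The median log2 fold changes were -0.45, -0.68, -0.77 and -0.80, beside -0.77 for the structural NDUF genes. The complex II list had the smallest, but it also holds Sdhaf assembly factors, so it is not like the structural NDUF list. The largest changes in these lists were in Sdhb of complex II (-1.02 ± 0.14), Uqcrh of complex III (-1.07 ± 0.23), Cox7a1, the muscle form of a complex IV subunit (-1.66 ± 0.24), and Atp5k of complex V (-1.07 ± 0.26; log2 fold change and SE). None of the 7 complex I genes of mitochondrial DNA was called or had an unadjusted p below 0.05 by limma, and their median was 0.06, with 3 lower and 4 higher values. Their summed RPKM was 29587 to 32449 in EAE mice and 17941 to 41781 in Ctrl mice. Ctrl mouse 4 gave the lowest of the latter, and the other 4 Ctrl mice had 34188 to 41781, above all EAE mice. Without Ctrl mouse 4 the median was -0.25, with 5 lower values, 2 of them at an adjusted p below 0.05 and 0 called. Against OVA mice, whose sums of 39339 to 42444 also lay above those of all EAE mice, 6 of 7 had lower values, with a median of -0.31, 1 had an adjusted p below 0.05 and 0 were called. Of 10 assembly factors of complex I without the NDUF name, Dmac2 was called lower (-0.86 ± 0.11) and Nubpl, which supplies iron-sulfur clusters to complex I, higher (0.81 ± 0.16). These counts are near the 11.8% and 14.6% of all genes called lower and higher. Of 14 other markers of mitochondrial mass, 1 was called lower, the ADP/ATP carrier Slc25a4 (-0.87 ± 0.16), against 11.8% of all genes. At an adjusted p below 0.05, 6 had lower values, against 19% of all genes, and 0 higher ones. The median of the 14 was 0.005. Their summed RPKM was 3503 to 4771 in EAE and 5502 to 6876 in Ctrl mice, without overlap. A sum mostly follows the most abundant genes, and 7 of the 14 had lower and 7 higher values. Against OVA, 3 of the markers were called lower (Slc25a4, Cs and Phb), against 9.28% of all genes, with a median of -0.08.

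Among 17 tested regulators of mitochondrial biogenesis, 4 were called lower and 2 higher against Ctrl on day 14, beside 11.8% and 14.6% of all genes, with a median log2 fold change of 0.19. Perm1 (-1.69 ± 0.27; adjusted p = 0.000157 by limma), a muscle regulator of oxidative genes, had the largest fall, and Nfe2l2 (1.12 ± 0.20; adjusted p = 0.000366), of the oxidative stress response, the largest rise. Esrra, encoding estrogen-related receptor alpha, was also called lower (-0.88 ± 0.13). Of the 17 regulators, 6 had lower and 11 had higher values.

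Markers of other cell types moved with the same comparison. Of all genes tested, 11.8% were called lower, the share to set beside the counts of lower genes below. The fast fibre list had 3 of 12 genes called lower, among them Pvalb (-1.47 ± 0.27) and Mylk2 (-1.29 ± 0.17), with a summed RPKM of 75376 to 94697 in EAE and 104592 to 149303 in Ctrl mice. The slow fibre list had 4 of 11 called lower, with 3318 to 5149 and 4648 to 6741 RPKM. Both muscle lists were thus present at high levels in every mouse. Erythrocyte markers (4 of 4 tested lower; summed RPKM 26.5 to 189 in EAE and 189 to 684 in Ctrl mice), fibroblast markers (10 of 11 lower; 788 to 1142 and 1924 to 2928) and macrophage markers (6 of 11 lower; 159.6 to 359 and 342 to 505) were lower in EAE mice. Of 12 neutrophil markers, only 5 passed the filter, and all 5 were called higher, against 14.6% of all genes. A gene that is low in Ctrl mice passes only through the EAE mice, so this count could hardly go the other way. The summed RPKM of the 12 was 220.5 to 406 in EAE, 71.0 to 240.0 in OVA and 5.42 to 12.0 in Ctrl mice. Endothelial markers had 4 of 12 and adipocyte markers 1 of 6 tested genes called lower, Schwann cell markers 0 of 7, and no lymphocyte marker passed the filter. The part of these cells in the NDUF results was not tested.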

How the data were processed

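EDL muscle RNA of 30 mice was measured as poly(A) RNA-Seq with paired-end reads. The authors aligned reads to mm10 with Subread and assigned them to RefSeq transcripts with featureCounts (strand setting not given in the sources used here, so that reads of overlapping antisense genes cannot be told apart), computed RPKM and deposited 1 table of 21073 genes, whose values are on a log2 scale. The scale was not stated and was read from the values: taken as log2(RPKM + 1), 99.2% of 1559 low values of 1249 genes were whole multiples of 1 read within 0.05, against 54.7% taken as RPKM. Values were converted back to RPKM, with 0.0001 as no read. Depth was estimated from the value of 1 read.

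Genes with a mean above 3 RPKM in a compared group were tested on log2(RPKM + 0.1), where fold changes of low genes are understated, with limma 3.58.1 in R 4.3.3 (lmFit, eBayes with trend), 15 mice of a day in 1 model and all 30 for changes between days. The authors' thresholds (fold change above 1.5, adjusted p below 0.05) were kept, while edgeR, which the authors used, needs counts. All 46 NDUF genes passed the filter in each comparison. Tested on simulated data, the model recovered 194 of 200 changed genes with 4 false calls. Recovery at the size of the NDUF fold changes, or with a length trend shared by many genes, was not tested. Groups and replicate numbers came from the sample titles. Exon lengths came from GENCODE vM21 for 20048 genes (95.1%), promoters from RefSeq for 40 of the 46 members, and names and coordinates from RefSeq (GRCm38.p6). Any NDUF gene could be named, and day 14 values per mouse in EAE and Ctrl mice were given for core subunits, the 5 lowest and 3 highest structural changes, the assembly factors and the largest changes between days. A member that enters all counts is not reported by name or drawn here. Members and lists were chosen with earlier results of these data known. Alternatives were the pseudocount, filter, scaling, length trend, thresholds, replicate block and each mouse left out.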

Additional observations from a re-analysis of the deposited data

Results flagged for a closer look

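A single mouse lay far from the other 4 of its group in 9 of 162 sets of 5 values tested (gap to the nearest value over the range above 0.71), where chance gives about 1 in 20. EAE mouse 1 of day 14 accounted for 4 of them: NDUFAF2 at 31.2 RPKM (others 15.4 to 16.2), NDUFS4 at 168 RPKM (others 89.6 to 109), NDUFAF1 at 21.3 RPKM (others 16.8 to 18.1) and the mean log2 level of the assembly factors at 4.26 (others 3.64 to 3.79). Ctrl mouse 1 of day 14 was lowest of its group in NDUFS1, at 148 RPKM (others 196 to 208), and highest in NDUFAF3, at 28.4 RPKM (others 18.2 to 20.5). NDUFAF6 stood apart in Ctrl mouse 5 of day 14, at 17.7 RPKM (others 22.4 to 23.8), and in EAE mouse 1 of day 40, at 21.3 RPKM (others 15.4 to 16.9). NDUFS1 in OVA mouse 5 of day 40 was at 205 RPKM, against 210.1 to 212 in a narrow group.

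The difference between EAE and Ctrl mice was not the same on both days for 35 structural genes and 3 assembly factors by the interaction test, and that between EAE and OVA mice for 33 and 3. Which libraries and settings these counts depend on is given with the processing.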

How the results depend on the processing

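Of 224 alternative counts of called genes (8 comparisons, both classes, no single mouse left out), 212 were within 1.5 times of the reported one, as were all 200 with 1 mouse left out. Both totals include OVA vs. Ctrl and every comparison within day 40, where no NDUF gene was called. There, 0 against 0 counted as agreement, which raises both totals. A fold-change threshold of 2 gave 1 structural gene called in each EAE comparison of day 14, 20 (EAE vs. Ctrl) and 9 (EAE vs. OVA) for the change between days, and 0, 0, 0 and 1 assembly factors, by fewer genes passing. Without a fold-change threshold, 4 assembly factors passed against OVA on day 14. Leaving out the 4 mice of day 14 with the lowest length slopes, an alternative chosen after seeing the data, gave 12 structural genes against OVA on day 14, and with the length trend also removed 16 against Ctrl and 23 for its change between days. With 1 mouse left out, structural counts ranged from 21 to 30 (EAE vs. Ctrl, day 14), 18 to 29 (EAE vs. OVA, day 14), 31 to 37 and 28 to 36 (changes), and assembly factor counts were 3 to 3, 2 to 3, 3 to 4 and 3 to 3. The other comparisons gave 0 calls in every such fit.

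Replicate numbers did not pair mice: 8 of 30 same-numbered pairs correlated above 0.1 in their deviations (median -0.07, range -0.73 to 0.70). Of the 8, 7 were among the 15 pairs of day 14, where the mice numbered 1, each with the lowest length slope of its group, correlated in all 3 pairs (0.61, 0.51 and 0.70). A replicate block gave 27 structural genes in each EAE comparison of day 14 and 35 and 35 for the changes. Sign changes against Ctrl on day 14 affected values near 0: NDUFAF2 (-0.064 with median-of-ratios scaling, -0.060 with quantile normalization, -0.088 without the 4 mice, -0.17 to 0.11 with 1 mouse left out), NDUFAF4 (-0.024, -0.036 and -0.12 likewise, -0.071 without the length trend, -0.21 with both changes, -0.045 to 0.13 with 1 mouse left out), NDUFA7 (0.15 without the length trend, 0.12 with both changes) and NDUFAF7 (-0.10 to 0.038 with 1 mouse left out). The cause was not tested. Whether depth limited these results was not tested, and the number of mice limits precision.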
